A study of Mus musculus with 6 samples.

Results

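Sodium channel subunit genes, the pacemaker channel genes Hcn2 and Hcn4, and Trpm4 were examined in the left ventricular apex of mice with an induced loss of PTIP. The members were named genes, and a probe set was used if the platform annotation tied it to 1 of them only. Of 8 genes, 6 were measured (Scn3b, Scn4b, Scn3a, Scn7a, Hcn2 and Trpm4), with 10 of the 45037 probe sets tested. No probe set met the rule for Scn4a or Hcn4, which were not measured here.

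The PTIP KO group was 3 female mice in which 1 allele of Paxip1 (the PTIP gene) was floxed and the other null, and which carried a cardiac Cre transgene. That transgene encodes Cre recombinase fused to a modified estrogen receptor, under the alpha myosin heavy chain promoter. The PTIP+ group was 3 female littermates with a floxed and a wild-type Paxip1 allele, for which the labels name no Cre transgene. All mice were 8 weeks old, of mixed C57B6 and B6129 background, and all received tamoxifen at 20 mg/kg. Timing is described in 2 ways, as hearts from day 5 after injection in one label and as dosing over 5 days in another. How many injections were given, and how long before collection, is therefore not settled. Each mouse has 1 array. Since the promoter is that of cardiomyocytes, other cells of the apex keep their floxed allele, and an effect of Cre itself cannot be told apart from loss of PTIP. By the labels, the groups differ in a null against a wild-type allele as well as in the induced deletion. Whether PTIP+ mice carried the Cre transgene is not stated, so the groups may differ in it too.

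Voltage-gated sodium channels carry the fast inward current that starts the cardiac action potential and drives its conduction. An alpha subunit forms the pore, and beta subunits, single-pass membrane proteins with an immunoglobulin-like domain, adjust its gating and its place in the membrane. Hcn channels open on hyperpolarisation and carry the pacemaker current, for which the ventricle is a site of low activity. Trpm4 is a cation channel opened by intracellular calcium, which passes sodium and potassium but not calcium.

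Paxip1 was lower without overlap on all 4 of its probe sets, and 3 of them passed the test. On the brightest, 1434363_x_at, log2 values were 6.53, 6.50 and 6.47 in PTIP KO mice 1 to 3, against 7.15, 7.46 and 7.76 in PTIP+ mice 1 to 3 (difference -0.95, limma adjusted p = 0.106). The other 3 differed by -1.83 to -1.54 (limma adjusted p = 0.0240 to 0.0377). The 6 arrays had pairwise correlations of 0.989 to 0.995. Actin control probe sets near the 3' and the 5' end of the transcript gauge RNA integrity, and the log2 gap between them was 1.45 to 1.64 in PTIP KO mice and 1.17 to 1.85 in PTIP+ mice, with the highest value in PTIP+ mouse 1. Markers of cardiomyocytes averaged 13.34 to 13.39 over 10 genes in PTIP KO mice, against 13.39 to 13.40 in PTIP+ mice. Fibroblast, endothelial, smooth muscle, atrial, skeletal muscle and neuronal marker lists overlapped between the groups. The 8 macrophage markers averaged 8.76 to 9.20 in PTIP KO mice, against 9.26 to 9.42 in PTIP+ mice, without overlap. None of these 8 passed (4 had an unadjusted p below 0.05, against 9.27% of all genes), and their part in the results below was not tested. In tissue RNA, fewer cells of a type and less RNA per cell cannot be told apart.

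None of the 10 probe sets of the measured genes passed the limma test at an adjusted p of 0.05, against 0.191% of all probe sets, and the adjusted p ran from 0.349 to 0.984. At an unadjusted p of 0.05, 1 of 10 passed (Hcn2), against 9.07% of all probe sets. The groups did not overlap for 1 of 10 (Hcn2 again, lower in PTIP KO mice), against 14.4% of all probe sets and 6.73% in that direction. With each gene taken at its brightest probe set, 4 genes had a positive and 2 a negative difference. Their median difference was 0.05 on the log2 scale, against 0.02 over all 18193 genes. The shares among these genes thus lie near the background, and the values below describe each gene with the interval that 3 mice per group allow.

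**Figure D1:**
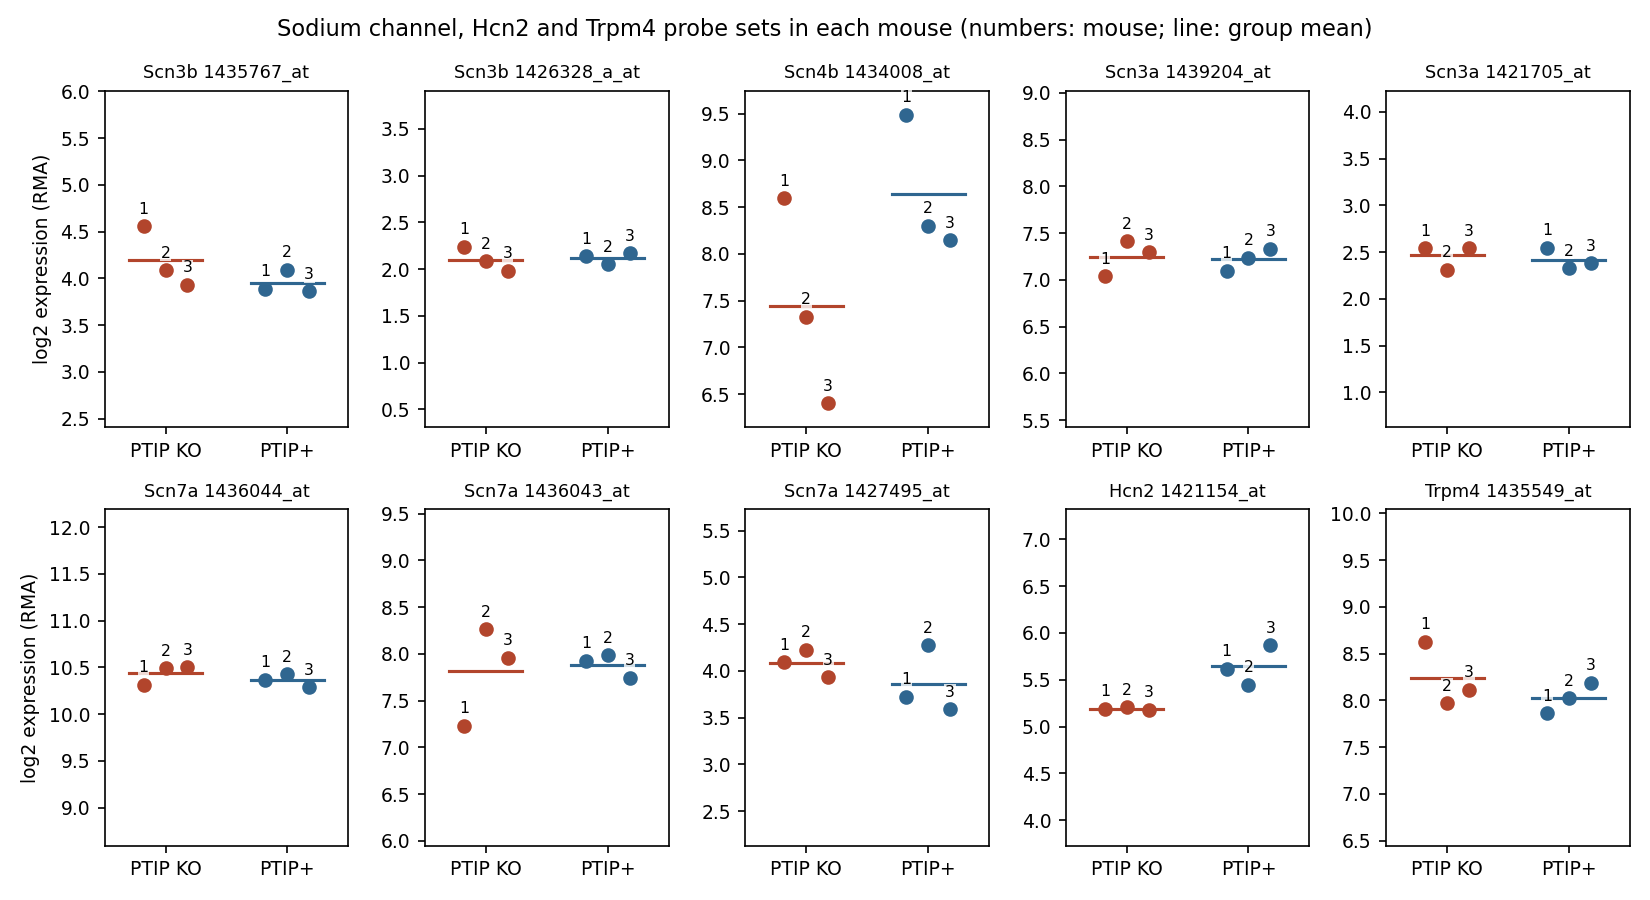
Log2 expression of the 10 probe sets in each mouse, PTIP KO at the left and PTIP+ at the right of each panel, with the mouse number above each point and the group mean as a line. Every panel spans the same height in log2 units around its own centre, and Scn4b, from 6.40 to 9.49, fills most of its panel while most other probe sets vary little.

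Scn4b, which encodes the beta4 subunit, had the largest difference of these genes and the largest spread. Its probe set 1434008_at read 8.59, 7.33 and 6.40 in PTIP KO mice 1 to 3. In PTIP+ mice 1 to 3 it read 9.49, 8.30 and 8.14. PTIP KO mice 2 and 3 lay below every PTIP+ mouse, while PTIP KO mouse 1 lay above PTIP+ mice 2 and 3, so the groups overlap. The means were 7.44 ± 1.10 in PTIP KO mice and 8.64 ± 0.74 in PTIP+ mice (SD, n = 3 each). The Scn4b difference was -1.20 (SE 0.57, 95% interval -2.54 to 0.13, limma adjusted p = 0.605). As a fold, that is 2.30-fold lower in PTIP KO mice, and the interval reaches from 5.80-fold lower to slightly higher. The exact permutation test gave p = 0.3, where 0.1 is the smallest value that 3 against 3 mice allow. A change in Scn4b was therefore not detectable with these mice, and a decrease of several fold was not outside the interval.

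The Scn4b value depends on single mice. The difference was -0.69 without PTIP KO mouse 3, -0.78 without PTIP+ mouse 1 and -1.78 without PTIP KO mouse 1. PTIP KO mouse 3 and the 3 PTIP+ mice share the leading digits of the number in their label description. Among these 4 arrays, with only 1 PTIP KO mouse, the difference was -2.24. The arrays with other digits are all of PTIP KO mice, so the digits cannot be told apart from the group. The actin 3' to 5' gap was 1.51, 1.45 and 1.64 in PTIP KO mice 1 to 3 and 1.85, 1.17 and 1.38 in PTIP+ mice 1 to 3. The same gap for Gapdh was 0.919, 0.929 and 0.903 in PTIP KO mice 1 to 3 and 1.27, 0.662 and 0.788 in PTIP+ mice 1 to 3. The PTIP+ mouse with the highest Scn4b thus had the highest gap for both controls, while the PTIP KO mouse with the lowest Scn4b had the highest actin gap and the lowest Gapdh gap of its group.

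PTIP+ mouse 1, which had the highest Scn4b, also stood apart in some markers of other muscle. The 10 skeletal muscle markers averaged 4.96, 5.02 and 5.02 in PTIP KO mice 1 to 3, against 5.57, 4.82 and 5.08 in PTIP+ mice 1 to 3. Among them Myod1, a transcription factor of skeletal muscle, read 7.53 to 7.70 in PTIP KO mice, against 8.64, 6.99 and 7.44 in PTIP+ mice 1 to 3. Tnni2 lay at 6.20 to 6.44 in PTIP KO mice, against 7.79, 6.93 and 7.46 in PTIP+ mice 1 to 3, without overlap. Its difference of -1.04 (limma adjusted p = 0.182) was the only 1 of the 10 with an unadjusted limma p below 0.05 (0.00158). Over all genes, 9.27% had an unadjusted limma p below 0.05. The fast skeletal myosins Myh1 and Myh4 read 2.55 and 2.65 in PTIP+ mouse 1, near the median of 2.54 of probe sets for Y-linked genes, which female mice lack. The 7 atrial markers averaged 7.05 to 7.26 in PTIP KO mice, against 7.53, 6.93 and 6.74 in PTIP+ mice 1 to 3. Of these Sln, an inhibitor of the calcium pump, read 4.23 to 4.39 in PTIP KO mice, against 5.66, 3.61 and 3.77 in PTIP+ mice 1 to 3. Myl7, Myl4 and Dkk3 were also highest in PTIP+ mouse 1, while Nppa, Stard10 and Bmp10 were lowest there. Nppa read 12.11 to 12.74 in PTIP KO mice, against 11.85, 12.17 and 11.91 in PTIP+ mice 1 to 3. Stard10 read 8.74 to 9.11 in PTIP KO mice, against 8.00, 8.47 and 8.41 in PTIP+ mice 1 to 3. The differences of Nppa and Stard10 were 0.54 (95% interval 0.09 to 0.99) and 0.65 (95% interval 0.27 to 1.04). The intervals of the other atrial markers reached across 0. None of these markers passed, and the parts of RNA integrity and of these markers in the Scn4b values were not tested.

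Within groups, Scn4b varied more than nearly all transcripts on the array. The highest and lowest PTIP KO mice differed by 4.56-fold, and the highest and lowest PTIP+ mice by 2.54-fold. Its pooled SD within groups was 0.93 on the log2 scale, and 109 of 45037 probe sets had a larger one, where the median was 0.18. Among the 22518 probe sets with a mean above the array median of 5.19, 67 had a larger SD. By comparison, the other 5 genes had SDs within groups between 0.09 for Scn7a and 0.27 for Trpm4 on their brightest probe sets.

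**Figure D2:**
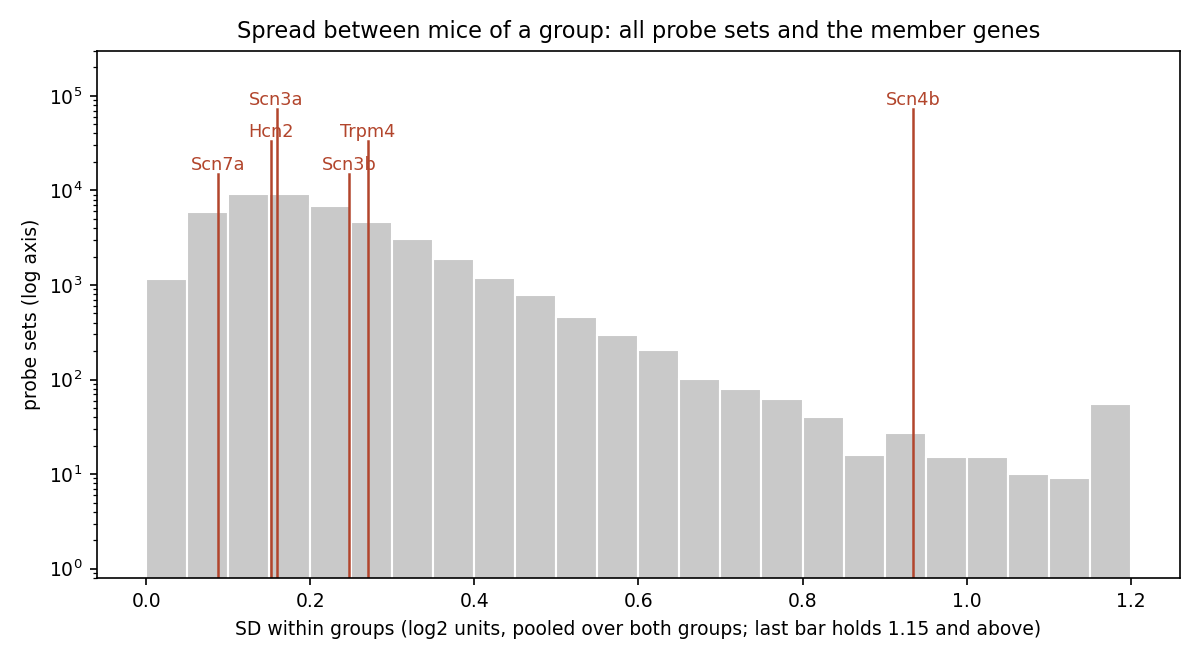
Number of probe sets (log axis) by SD within groups in log2 units, pooled over the PTIP KO and PTIP+ mice, with red lines at the brightest probe set of each measured gene. Scn4b lies at 0.93, far in the right tail, and the other genes lie between 0.09 and 0.27, in the bulk of the distribution.

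Scn3b encodes the beta3 subunit. Its brighter probe set, 1435767_at, read 4.56, 4.09 and 3.93 in PTIP KO mice 1 to 3, against 3.89, 4.09 and 3.86 in PTIP+ mice 1 to 3. PTIP KO mouse 1 stood above all other mice, and the other PTIP KO mice lay within the PTIP+ range. The difference was 0.25 (SE 0.18, 95% interval -0.17 to 0.66, limma adjusted p = 0.774), and 0.06 without PTIP KO mouse 1. The second Scn3b probe set, 1426328_a_at, lay between 1.98 and 2.24 in PTIP KO mice and between 2.05 and 2.17 in PTIP+ mice, a difference of -0.02. RMA values carry no detection call. For orientation, the 15 probe sets of Y-linked genes had means between 1.75 and 5.30, with a median of 2.54 and an upper decile of 3.74. The brighter Scn3b probe set, with a mean of 4.07, lies above that decile and below the highest mean, and the other lies below the median. Whether Scn3b is above background is therefore not settled by these values.

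The alpha subunit genes Scn3a and Scn7a had smaller differences than Scn3b and Scn4b on their brightest probe sets. Scn3a encodes an alpha subunit known mainly from developing and injured neurons. On its probe set 1439204_at it read 7.04, 7.41 and 7.30 in PTIP KO mice 1 to 3, against 7.10, 7.24 and 7.33 in PTIP+ mice 1 to 3. The groups overlapped nearly entirely, with means of 7.25 ± 0.19 in PTIP KO mice and 7.22 ± 0.12 in PTIP+ mice (SD, n = 3 each). The Scn3a difference was 0.03 (SE 0.14, 95% interval -0.29 to 0.34, limma adjusted p = 0.980). The farther end of that interval is a 1.27-fold increase. The dim Scn3a probe set 1421705_at (dim meaning a mean below the array median of 5.19) averaged 2.47 in PTIP KO mice and 2.42 in PTIP+ mice, close to the median of the Y-linked probe sets.

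Scn7a encodes an atypical alpha subunit that is gated by the sodium concentration more than by voltage and is known from glia and non-neuronal cells. Its brightest probe set, 1436044_at, read 10.32, 10.49 and 10.50 in PTIP KO mice 1 to 3, against 10.37, 10.42 and 10.29 in PTIP+ mice 1 to 3. This was the tightest of the 6 genes, with means of 10.44 ± 0.10 in PTIP KO mice and 10.36 ± 0.07 in PTIP+ mice (SD, n = 3 each). The Scn7a difference was 0.08 (SE 0.11, 95% interval -0.18 to 0.33, limma adjusted p = 0.906), so the interval ends at a 1.26-fold increase.

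The other Scn7a probe sets did not pass either, and their signs differ. Probe set 1436043_at read 7.23, 8.27 and 7.96 in PTIP KO mice 1 to 3, against 7.93, 7.99 and 7.74 in PTIP+ mice 1 to 3, a difference of -0.07 (95% interval -0.65 to 0.52). PTIP KO mouse 1 was the lowest of the 6 there, and its value on 1436044_at was the second lowest. The dim probe set 1427495_at averaged 4.08 in PTIP KO mice and 3.86 in PTIP+ mice, a difference of 0.22 (95% interval -0.23 to 0.67). Schwann cell and glia markers, the list for cells in which Scn7a is well known, averaged 6.07 to 6.59 in PTIP KO mice and 5.99 to 6.24 in PTIP+ mice over 7 genes, with overlap. None of these 7 passed, and 2 had an unadjusted p below 0.05, against 9.27% of all genes. These were Sox10 and Cnp, both higher in PTIP KO mice (differences 0.54 and 0.44).

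Hcn2 encodes a pacemaker channel that is found in working myocardium as well as in the sinus node. Its single probe set, 1421154_at, read 5.19, 5.20 and 5.18 in PTIP KO mice 1 to 3. In PTIP+ mice 1 to 3 it read 5.62, 5.45 and 5.87. All PTIP KO mice lay below all PTIP+ mice, and they lay within 0.02 of each other. The means were 5.19 ± 0.01 in PTIP KO mice and 5.64 ± 0.21 in PTIP+ mice (SD, n = 3 each).

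The Hcn2 difference was -0.45 (SE 0.13, 95% interval -0.76 to -0.14). Its unadjusted limma p was 0.0102 and its adjusted p = 0.349, so it did not pass, and the exact permutation p was 0.1, the smallest possible. The difference ranged from -0.55 to -0.34 when 1 mouse was left out. It was -0.46 in the 4 arrays with shared leading digits, which hold only 1 PTIP KO mouse. The PTIP KO values lie above the upper decile of the Y-linked probe sets (3.74) but just below their highest mean (5.30), and the PTIP+ values lie above both. The PTIP KO level of Hcn2 is thus not shown to be above background, and no fold is given.

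Trpm4 is the calcium-activated cation channel gene of this group. Its probe set 1435549_at read 8.63, 7.97 and 8.11 in PTIP KO mice 1 to 3, against 7.86, 8.02 and 8.19 in PTIP+ mice 1 to 3. PTIP KO mouse 1 was highest, and the other PTIP KO mice lay within the PTIP+ range. The means were 8.24 ± 0.35 in PTIP KO mice and 8.02 ± 0.16 in PTIP+ mice (SD, n = 3 each). The Trpm4 difference was 0.21 (SE 0.19, 95% interval -0.23 to 0.65, limma adjusted p = 0.826), and 0.02 without PTIP KO mouse 1.

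**Figure D3:**
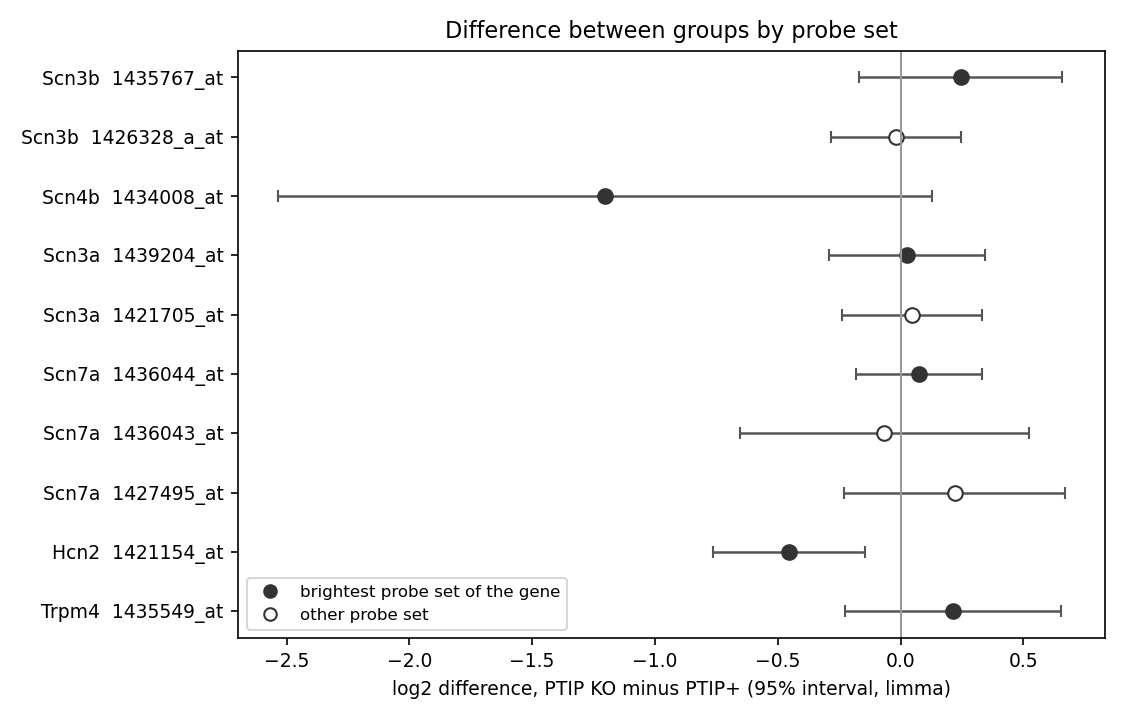
Log2 difference, PTIP KO minus PTIP+, with its 95% limma interval for each of the 10 probe sets; filled points are the brightest probe set of a gene and open points its other probe sets. Scn4b has the widest interval (-2.54 to 0.13), and Hcn2 has the only interval that leaves out 0 (-0.76 to -0.14), before adjustment for the number of probe sets.

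**Figure D4:**
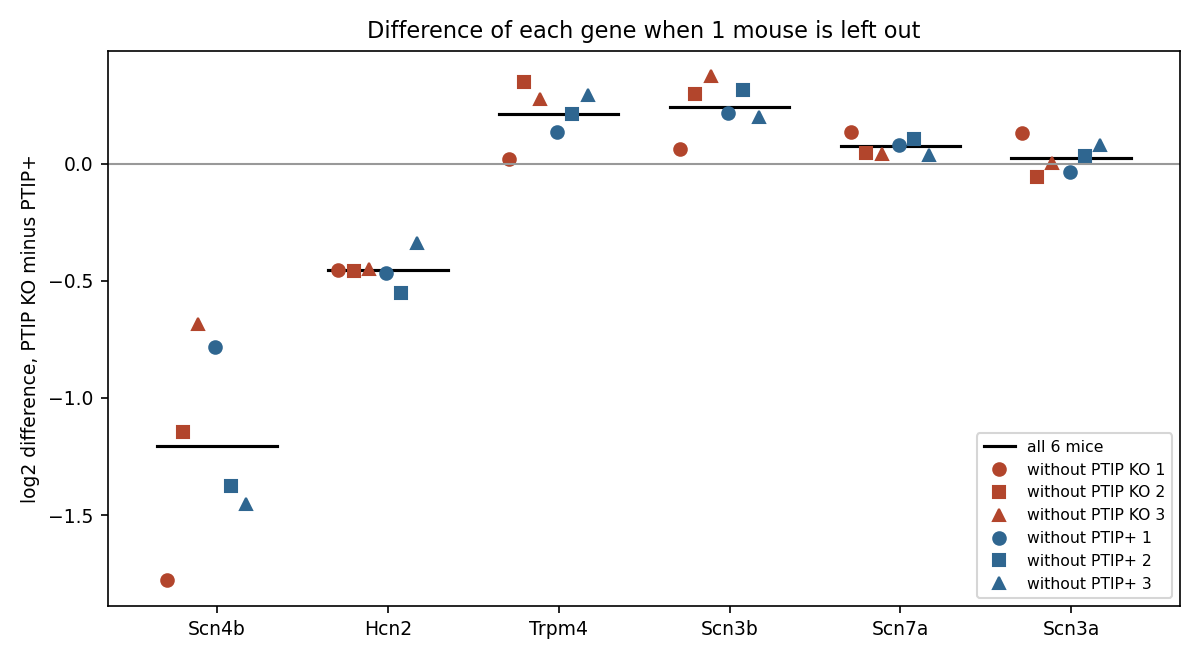
Log2 difference, PTIP KO minus PTIP+, of each gene at its brightest probe set with all 6 mice (black line) and with 1 mouse left out (red for a PTIP KO mouse, blue for a PTIP+ mouse, the shape giving its number). Scn4b ranges from -1.78 to -0.69 and Hcn2 from -0.55 to -0.34, and Trpm4 and Scn3b fall to 0.02 and 0.06 without PTIP KO mouse 1.

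Genes around these channels were read from 5 lists: other sodium channel subunits, other Hcn channels with Hcn partners, partners of the sodium channel complex, other Trpm channels with Abcc8, and pacemaker and conduction genes. None of the 60 genes measured passed in limma over all probe sets, against 0.286% of all genes. At an unadjusted p of 0.05, 14 did (23.3%), against 9.27% of all genes, and for 16 (26.7%) the groups did not overlap, against 16.0% of all genes. The lists were chosen with earlier results of these data known, so these shares are a description.

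Of the other sodium channel subunit genes, 8 were measured, 6 with a positive and 2 with a negative difference (median 0.19, against 0.02 over all genes). Of these, 6 had means below the array median and so inside the range of the Y-linked probe sets, and only Scn2b and Scn10a lay above it, so the count and the median rest mostly on dim signals. Scn2b, the beta2 subunit gene, is the direct neighbour of Scn4b in the RefSeq gene table. It read 6.17, 6.60 and 6.66 in PTIP KO mice 1 to 3, against 6.61, 6.66 and 6.82 in PTIP+ mice 1 to 3. The Scn2b difference was -0.21 (95% interval -0.58 to 0.15, limma adjusted p = 0.777), and its SD within groups was 0.21, against 0.93 for Scn4b. Whether the 2 genes differ in response was not tested.

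Scn10a encodes an alpha subunit known best from sensory neurons. It read 5.96, 5.73 and 6.16 in PTIP KO mice 1 to 3, against 5.47, 5.56 and 5.47 in PTIP+ mice 1 to 3, without overlap (difference 0.45, limma adjusted p = 0.361). Its neighbour Scn11a, another sensory neuron channel, was dim at 2.76 to 3.04 in PTIP KO mice and 2.54 to 2.62 in PTIP+ mice (difference 0.32, limma adjusted p = 0.463). Scn1a, a neuronal alpha subunit gene, read 3.22 to 3.95 in PTIP KO mice and 4.11 to 4.26 in PTIP+ mice (difference -0.50, limma adjusted p = 0.501). Its other probe sets differed by -0.13 and 0.12.

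Of 17 measured partners of the sodium channel complex, 8 had a positive and 9 a negative difference (median -0.03). Fgf14, an intracellular fibroblast growth factor homologous factor that binds the tail of the alpha subunit, had the smallest p. It read 5.98, 6.20 and 6.10 in PTIP KO mice 1 to 3, against 6.84, 6.98 and 6.30 in PTIP+ mice 1 to 3. All PTIP KO mice lay below all PTIP+ mice (difference -0.61, limma adjusted p = 0.369). The probe sets 1458830_at and 1447480_at of Fgf14 differed by -1.09 and -1.14 (limma adjusted p = 0.288 and 0.129), and the fourth by -0.09. Averaged over its 4 probe sets, Fgf14 was lower in PTIP KO mice by a difference of -0.73, which passed (limma adjusted p = 0.0497, over genes). Nedd4l, a ubiquitin ligase that removes sodium channels from the membrane, read 9.39, 9.59 and 9.43 in PTIP KO mice, against 9.19, 9.04 and 9.18 in PTIP+ mice (difference 0.34, limma adjusted p = 0.424). Sptbn4, a spectrin of the membrane skeleton, was dim and differed by 0.41. Ank2, an ankyrin that anchors membrane proteins, and Usp2, a deubiquitinase, had the brightest probe sets of the list and differed by -0.16 and 0.16.

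Of the 4 measured genes in the list of other Hcn channels and partners, 3 had a positive and 1 a negative difference. Hcn3, the only further Hcn gene measured, averaged 2.50 in PTIP KO mice and 2.42 in PTIP+ mice. The Hcn3 difference was 0.08 (95% interval -0.30 to 0.46), and its level was near the median of the Y-linked probe sets. Pex5l, a brain protein that binds Hcn channels, was dim and differed by 0.23. Kcne2, a small subunit that associates with potassium and Hcn channels, was dim as well and differed by -0.11. Flna, the actin cross-linker filamin A, differed by 0.06.

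Of the Trpm list, 8 genes were measured, 2 with a positive and 6 with a negative difference (median -0.21). Abcc8, the sulfonylurea receptor that has been found in complexes with Trpm4 in the nervous system, read 9.95, 9.69 and 9.84 in PTIP KO mice 1 to 3. In PTIP+ mice 1 to 3 it read 10.39, 10.04 and 10.27. Every PTIP KO mouse lay below every PTIP+ mouse (difference -0.41, limma adjusted p = 0.414), but the second Abcc8 probe set overlapped (difference -0.27). Trpm3, a heat- and steroid-activated cation channel gene, read 5.23 to 5.49 in PTIP KO mice and 5.57 to 6.05 in PTIP+ mice (difference -0.37, limma adjusted p = 0.538). Its probe set 1439026_at differed by -0.96 (limma adjusted p = 0.184). Trpm7, a channel fused to a kinase, differed by -0.19 on its brightest probe set, with overlap. Its dimmest probe set, 1431355_s_at, read 4.89 to 5.38 in PTIP KO mice and 5.78 to 6.46 in PTIP+ mice, without overlap (difference -0.87, limma adjusted p = 0.255), and the other Trpm7 probe sets differed by -0.14 and -0.16. Trpm1 was dim and differed by -0.23.

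Of 23 measured pacemaker and conduction genes, 9 had a positive and 14 a negative difference (median -0.15). Kcnj5, a subunit of the acetylcholine-activated potassium channel, read 10.03, 10.09 and 9.87 in PTIP KO mice, against 10.67, 10.44 and 10.50 in PTIP+ mice. The Kcnj5 difference was -0.54 (limma adjusted p = 0.214), while its dim second probe set differed by 0.24. Hopx, a homeodomain protein without DNA binding, differed by -0.34 on its brightest probe set (limma adjusted p = 0.360) and by -0.74 on the other (limma adjusted p = 0.0909), each without overlap. Tbx5, a T-box factor of conduction tissue, had a higher level without overlap on both probe sets. Its differences were 0.52 and 0.89 (limma adjusted p = 0.188 and 0.156), and averaged over both probe sets it passed (difference 0.70, limma adjusted p = 0.0366, over genes). Popdc2, a membrane protein that binds cyclic AMP, had the brightest probe set among conduction genes other than Hopx and differed by -0.14. The 5 conduction cell markers measured averaged 5.21 to 5.84 in PTIP KO mice and 5.23 to 5.66 in PTIP+ mice, with overlap.

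**Figure D5:**
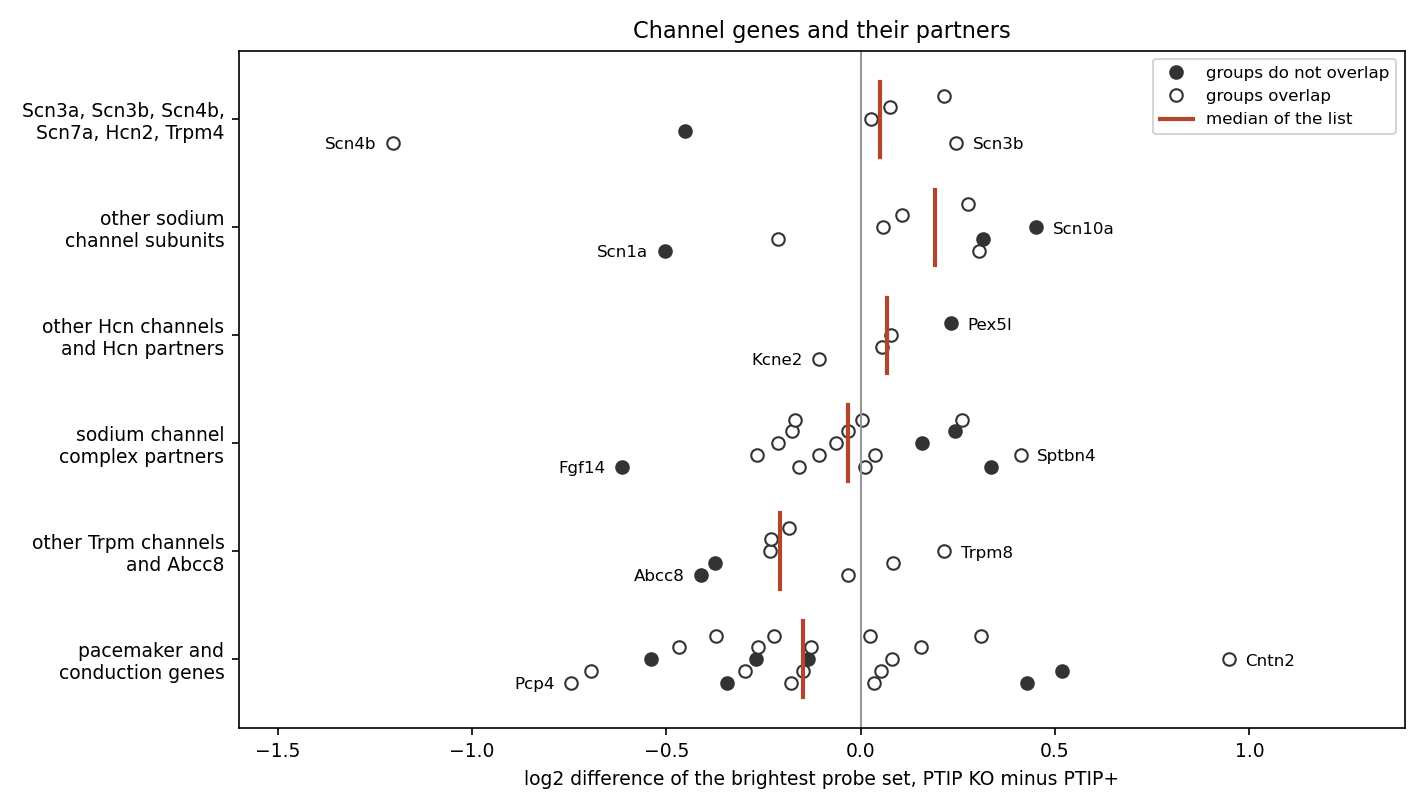
Log2 difference, PTIP KO minus PTIP+, of the brightest probe set of each gene, by list, with the 6 measured genes in the top row; filled points mark genes whose groups do not overlap, red bars the median of a list, and names the lowest and highest gene of each row. Scn4b at -1.20 is the lowest point although its groups overlap, and no point shown passed after adjustment.

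The array profiles most like that of Scn4b were sought among 11508 other genes with a mean above the array median. The highest Pearson correlations over the 6 arrays were 0.995 for Phactr1, 0.989 for Tcf7l1 and 0.972 for Bora. In all 3, as in Scn4b, mouse 1 had the highest and mouse 3 the lowest value of its group, with smaller gaps between mice. Phactr1 read 8.27, 7.97 and 7.66 in PTIP KO mice 1 to 3, against 8.49, 8.21 and 8.11 in PTIP+ mice 1 to 3 (difference -0.30, limma adjusted p = 0.708). For Scn7a, the brightest of the measured genes' probe sets, the highest correlations were 0.989 for Klhl15, 0.977 for 3830406C13Rik and 0.977 for Tusc3, none of which passed. With 6 arrays and so many genes compared, correlations of this size are a description of these arrays.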

How the data were processed

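RNA from the left ventricular apex was amplified and labelled with the NuGen Ovation biotin system, per the labels, and hybridised to Affymetrix mouse arrays, 1 per mouse. The authors deposited RMA output on the log2 scale, per the submitters' processing notes. The version of RMA is not given in the sources, and the scale was read from the range of the values, 1.36 to 14.3. RMA normalises between arrays and compresses dim signals, and precision is limited by the number of arrays. After 64 control probe sets were left out, 45037 were tested. Symbols came from the platform annotation, updated by Entrez identifier with the RefSeq gene table of GRCm38.p6: 34945 probe sets had 1 gene, 932 several and 9160 none listed. No coordinates are given, since no build is named for the array. The brightest probe set of a gene, by its mean over the 6 arrays, represents it.

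Groups were compared as PTIP KO minus PTIP+ with limma 3.58.1 in R 4.3.3 (lmFit, eBayes), two-sided, without covariates and with Benjamini-Hochberg adjustment over all tested probe sets. Intervals are unadjusted. The steps were tested on simulated data. The labels name separate animals. Members and lists were chosen with earlier results of these data known. The naming rule took every member and Paxip1, and from each list up to 3 genes of the smallest p and 2 of the brightest. It also took the 3 genes most correlated with the member of largest difference and with the brightest member. Single markers and further probe sets of the list genes were chosen for the text after their values were seen. The alternatives were other variance priors, weighting of arrays, 2 filters by mean level, renewed normalisation, a replicate block, leaving out each mouse, the 4 arrays with shared description digits, an unmoderated test, a raised threshold and averaged probe sets. Adjustment over genes, with each gene's brightest probe set alone, was added after seeing the data. Mice with the same number did not deviate together (correlations of -0.15, -0.08 and -0.01), so the number was not treated as a pairing.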

Additional observations from a re-analysis of the deposited data

How the results depend on the processing

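No member probe set passed under the 17 alternatives run on their count, although the filters by mean level left 6 and 8 of the 10 to test. Scn4b, Hcn2, Trpm4 and Scn7a kept their sign under the 18 run on single genes, which include averaging and adjustment over genes but not the raised threshold. With the replicate block the Scn4b difference was -1.20 with an unadjusted limma p of 0.00134 (adjusted p = 0.248), and the count of passing probe sets over the whole array was 0 (3392 at an unadjusted p of 0.05). The sign of Scn3b turned in the 4 arrays with shared description digits (-0.016). That of Scn3a turned without PTIP KO mouse 2 or PTIP+ mouse 1, within a range of -0.056 to 0.13 over left-out mice. With probe sets averaged and adjustment over genes, 2 context genes passed, Fgf14 and Tbx5, and with adjustment over genes alone (chosen after seeing the data) 0 passed (13 at an unadjusted limma p of 0.05). The share of all genes passing under these gene-level settings is not given here. Whether these counts of context genes exceed that share is therefore open. Over the whole array 86 probe sets passed (30 higher, 56 lower), and 90 (43 higher, 47 lower) with arrays centred on their medians. The count was 185 with a variance trend, 204 with array weights, 51 with a robust prior, 51 above the lower quartile mean, 196 at an adjusted p of 0.1, 1 without moderation, 0 in the 4 arrays and 0 to 21 with 1 mouse left out; the causes were not tested. Leaving out a mouse leaves 2 in its group, and the 4 arrays hold 1 PTIP KO mouse. Signals within the range of Y-linked probe sets limit what Scn3b and the PTIP KO values of Hcn2 can show.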
